A study of Mus musculus with 12 samples.

Results

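The epidermal growth factor (EGF) receptor family was described through 10 transcripts, the receptors Egfr, Erbb2, Erbb3 and Erbb4 and the ligands Hbegf, Areg, Ereg, Tgfa, Btc and Epgn, out of 48795 genes counted in mouse fetal membranes, the sacs around the fetus. They were taken by gene symbol, because decorin is reported to bind Egfr, and were selected on the CPM of Hbegf, which had been lower in the knockout at embryonic day 12. The values of that contrast are therefore given as a description. All 10 were found, and 7 passed the filter on low counts. Areg passed it only through its level in the E18 DKO libraries and Btc only with libraries of both groups labelled E18, so these 2 are described without a test wherever those groups are compared. Bulk RNA was sequenced in 12 libraries, 3 in each of 4 groups. The groups were the double knockout of biglycan (Bgn) and decorin (Dcn) at embryonic day 18 (E18 DKO, strain given as C3H and C57BL/6), wild type labelled embryonic day 18 (E18-labelled WT, C3H), the double knockout at embryonic day 12 (E12 DKO, C3H and C57BL/6) and wild type at embryonic day 12 (E12 WT, C3H). Strain and genotype cannot be told apart, and the labels do not say which cells carried the deletions or whether a library came from 1 animal or several. P-values therefore measure only the spread between these libraries.

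ErbB receptors are cell surface tyrosine kinases that pair up when an EGF-like ligand binds, and they signal largely through the Ras and ERK cascade. Egfr binds Tgfa, Areg and Epgn, and Hbegf, Btc and Ereg bind both Egfr and Erbb4. Erbb2 has no known ligand of its own and serves as a partner, and Erbb3 has little kinase activity and binds neuregulins. The ligands are made as membrane proteins and are released by sheddases, and the family is known for driving growth and repair of epithelia.

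Some libraries stood apart from their labels. The targeted genes matched the genotypes, with Bgn at 14.3 to 25.1 CPM in the 6 DKO libraries and 223 to 686 CPM in the 6 wild-type libraries, and Dcn at 4.67 to 8.44 CPM in DKO and 198 to 978 CPM in wild type (counts scaled to a common library size, with TMM normalisation). Of all beta-globin counts, the embryonic genes gave 1.33 to 2.67% in E18 DKO, 74.8 to 87.8% in E18-labelled WT and 82.3 to 85.1% in E12 DKO, so the wild-type libraries labelled E18 resembled the early stage by this measure. In E12 WT the share was 14.8% in replicate 1 and 95.1 and 97.1% in the other two, and E12 WT 3 held 21.2% mitochondrial counts, against 3.58 to 7.78% in the other libraries. Library totals were 19967593 to 33065424 counts. Genotype and developmental stage cannot be told apart in the comparison labelled E18.

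Of the 5 ligand and receptor promoters shown here, that of Areg is printed because Areg had the largest fold difference, that of Epgn because it lies in the same chromosomal cluster and was hardly detected, and those of Tgfa, Egfr and Erbb2 because these transcripts were higher together with Areg. Each is the 150 bases before the start of the gene in RefSeq on build GRCm38.p6, on the gene's strand, with capitals marking the motifs searched on both strands, namely the core promoter box TATAAA, the cyclic AMP response element TGACGTCA and the GC-rich box GGGCGG.
Areg, chr5:91139449-91139598, plus strand: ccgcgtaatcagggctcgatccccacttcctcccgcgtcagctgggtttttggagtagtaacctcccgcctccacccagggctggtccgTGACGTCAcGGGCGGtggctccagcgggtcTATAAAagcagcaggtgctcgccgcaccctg
Epgn, chr5:91027367-91027516, plus strand: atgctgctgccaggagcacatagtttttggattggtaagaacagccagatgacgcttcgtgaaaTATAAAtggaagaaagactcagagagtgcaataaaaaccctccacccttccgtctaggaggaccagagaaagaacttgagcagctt
Tgfa, chr6:86195072-86195221, plus strand: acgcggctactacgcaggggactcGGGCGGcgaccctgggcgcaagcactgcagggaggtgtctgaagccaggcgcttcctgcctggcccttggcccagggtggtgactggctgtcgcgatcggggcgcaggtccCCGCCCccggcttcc
Egfr, chr11:16752053-16752202, plus strand: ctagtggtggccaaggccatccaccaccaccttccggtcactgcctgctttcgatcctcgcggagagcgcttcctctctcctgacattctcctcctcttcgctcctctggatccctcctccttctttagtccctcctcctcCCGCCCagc
Erbb2, chr11:98412334-98412483, plus strand: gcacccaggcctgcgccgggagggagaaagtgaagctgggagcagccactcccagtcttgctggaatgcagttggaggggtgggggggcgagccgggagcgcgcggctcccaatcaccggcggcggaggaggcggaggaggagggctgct

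The Areg window held all 3 motifs in a row, with TGACGTCA beginning 61 bases before the start, GGGCGG 52 bases before it and TATAAA 31 bases before it. TGACGTCA was present in 1.36% of the 32851 mouse promoter windows of this length, TATAAA in 7.57% and GGGCGG in 28.6%. The Tgfa window held GGGCGG 126 bases before the start and its reverse complement 15 bases before it, and Egfr held the reverse complement 9 bases before it. The Epgn window held TATAAA 86 bases before the start, and Erbb2 held none of these letters. The windows of Epgn and Erbb2 reach into the genes as counted, which begin at 91027464 and 98412470, upstream of their RefSeq starts. GC content was 64.7% for Areg, 45.3% for Epgn, 72.7% for Tgfa, 61.3% for Egfr and 71.3% for Erbb2, against a median of 54.0% over all windows. Such matches are descriptions of sequence and not of factor binding. Promoters of Btc and Erbb4 were searched as well, held none of the 3 motifs and are not printed. Promoters of Erbb3, Ereg and Hbegf were not used here.

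In E18 DKO membranes, 3 of the 3 tested receptors and 2 of the 2 tested ligands, Tgfa and Hbegf, were higher than in E18-labelled WT. In total, 5 of the 5 tested members rose and 0 fell (edgeR quasi-likelihood test, adjusted p under 0.05), where 20.5% of the 18153 genes tested were called higher and 21.8% lower. The CPM of the groups did not overlap in 6 of the 10 members, all higher in E18 DKO and Areg among them, against 27.7% of all tested genes that were higher without overlap and 56.3% without overlap in either direction; 42.3% of all genes were called. The median log2 fold change was 1.23 for the 3 receptors, beside -0.04 over all tested genes. With 1 library left out, 3 to 5 of the 5 calls were made.

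Erbb3 (chromosome 10, 128567523 to 128589652), the neuregulin receptor, was the most abundant receptor. Its level was 264, 423 and 324 CPM in E18 DKO, against 135, 111 and 94.7 CPM in E18-labelled WT, a log2 fold change of 1.57 ± 0.34 (SE, n = 3 per group, edgeR adjusted p = 0.0042). The lowest E18 DKO library thus lay above the highest wild-type one. Egfr (chromosome 11, 16752203 to 16918158) was at 67.5, 79.2 and 55.1 CPM in E18 DKO, against 26.8, 22.4 and 36.7 CPM in E18-labelled WT. The groups did not overlap, and the log2 fold change was 1.23 ± 0.22 (edgeR adjusted p = 0.00157). Erbb2 (chromosome 11, 98412470 to 98437716), the ligandless partner, was at 85.6, 108 and 78.6 CPM in E18 DKO, against 42.9, 44.3 and 48.0 CPM in E18-labelled WT, or 1.01 ± 0.20 on the log2 scale (edgeR adjusted p = 0.00254). The 3 wild-type values lay close together and below every E18 DKO value. Each of these receptor calls held in all 22 alternative settings. Erbb4 (chromosome 1, 68032186 to 69108059) had counts of 0, 0 and 0 in E18 DKO and 0, 2 and 6 in E18-labelled WT, and 0 in the 6 E12 libraries, where a count of 0 allows up to 3 counts per library. It could not be compared at this depth.

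**Figure D1:**
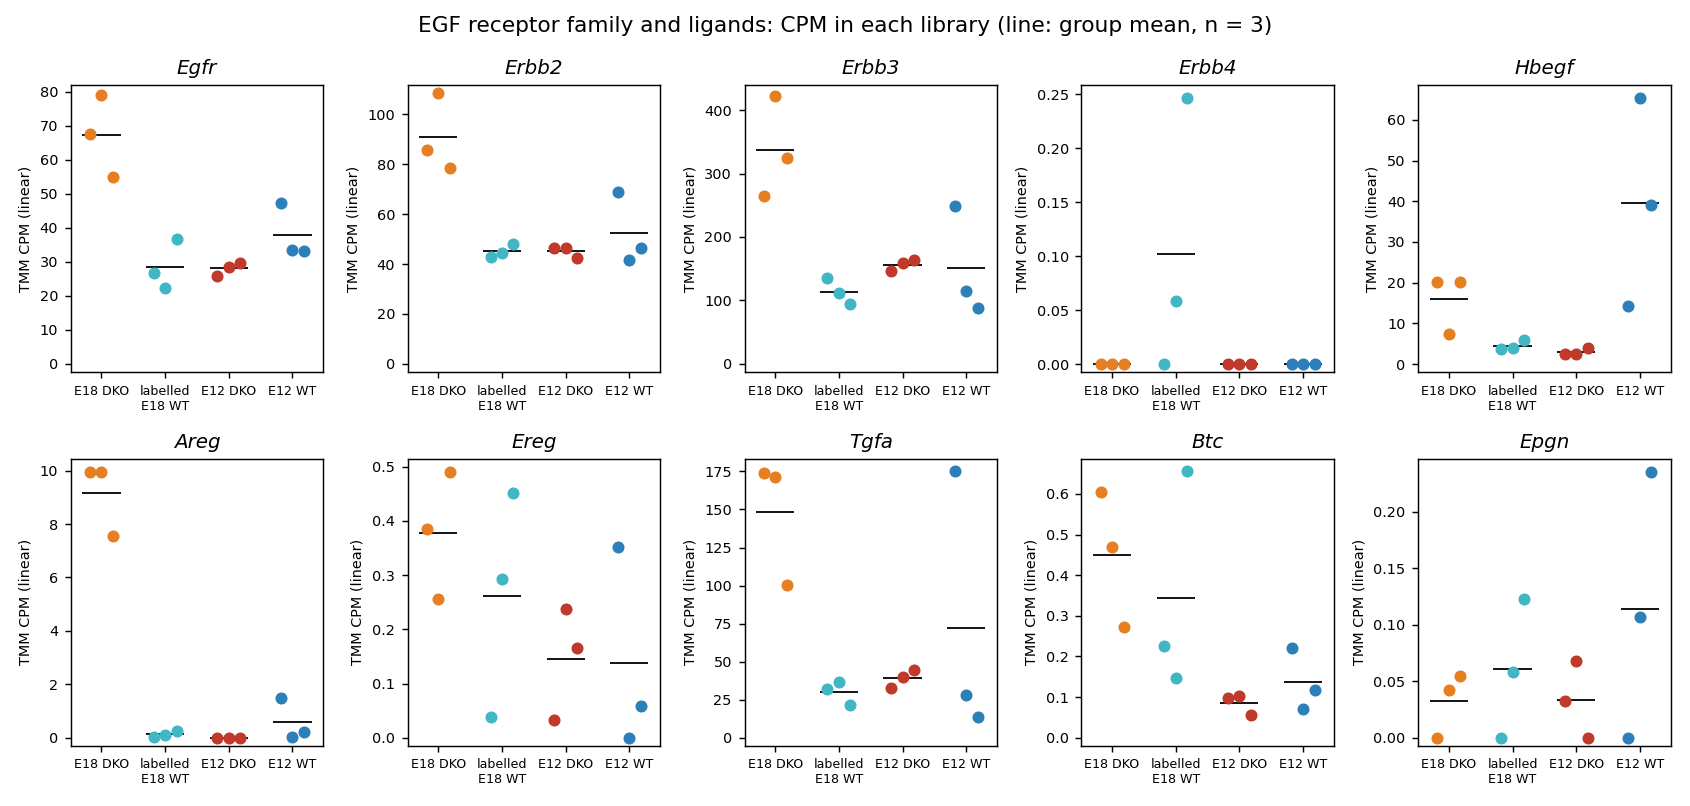
TMM-normalised CPM (linear vertical axis that includes 0, a different scale for each gene) of the 10 transcripts, with 1 point for each library, lines for group means (n = 3), and groups from left to right E18 DKO, E18-labelled WT, E12 DKO and E12 WT. Egfr, Erbb2, Erbb3, Areg, Tgfa and Hbegf were higher in every E18 DKO library than in any E18-labelled WT library, and Hbegf reached its highest value, 65.4 CPM, in E12 WT.

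Areg (chromosome 5, 91139599 to 91148432), amphiregulin, showed the largest fold difference among the ligands and is described without a test. Its counts were 181, 233 and 139 in E18 DKO (9.95, 9.94 and 7.57 CPM), against 1, 3 and 6 in E18-labelled WT. The groups did not overlap, and the fitted log2 fold change was 6.19 ± 1.13, a value that rests on at most 6 counts per wild-type library. Tgfa (chromosome 6, 86195223 to 86275719), transforming growth factor alpha, was at 174, 171 and 101 CPM in E18 DKO, against 32.2, 36.7 and 21.5 CPM in E18-labelled WT. Its log2 fold change was 2.30 ± 0.73 (edgeR adjusted p = 0.0258), and the lowest E18 DKO library held more than the highest wild-type one. Hbegf (chromosome 18, 36504929 to 36515805), heparin-binding EGF-like growth factor, was at 20.1, 7.46 and 20.1 CPM in E18 DKO, against 3.77, 3.93 and 5.87 CPM in E18-labelled WT. Its log2 fold change was 1.81 ± 0.52 (edgeR adjusted p = 0.0169), with E18 DKO 2 close above the wild-type range.

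The calls of Tgfa and Hbegf were not firm, and each was lost in 5 of 22 alternatives. Tgfa missed the threshold without E18 DKO 1 or 2 or any 1 E18-labelled WT library (adjusted p = 0.0643, 0.0590, 0.0680, 0.0592 and 0.0820). Hbegf missed it without E18 DKO 1 or 3, without E18-labelled WT 1 or 2, and with limma voom (adjusted p = 0.0559, 0.0509, 0.0605, 0.0601 and 0.0634). Both directions were the same in all of these.

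The remaining ligands were near the limit of detection. Btc (chromosome 5, 91357261 to 91402994), betacellulin, had counts of 11, 11 and 5 in E18 DKO and 6, 5 and 16 in E18-labelled WT, with a fitted log2 fold change of 0.41 ± 0.63. Ereg (chromosome 5, 91074622 to 91093646), epiregulin, had counts of 7, 6 and 9 in E18 DKO and 1, 10 and 11 in E18-labelled WT. Epgn (chromosome 5, 91027464 to 91035215), epigen, had 0, 1 and 1 counts in E18 DKO and 0, 2 and 3 in E18-labelled WT. The values of the groups overlapped for all 3, and differences were not detectable at this depth. Areg, Ereg, Epgn and Btc lie within 375.5 kb on chromosome 5, with Areg 46.0 kb from Ereg and 208.8 kb from Btc, and among these 4 the groups overlapped for Ereg, Epgn and Btc and not for Areg. Whether Areg differed from its neighbours was not tested.

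**Figure D2:**
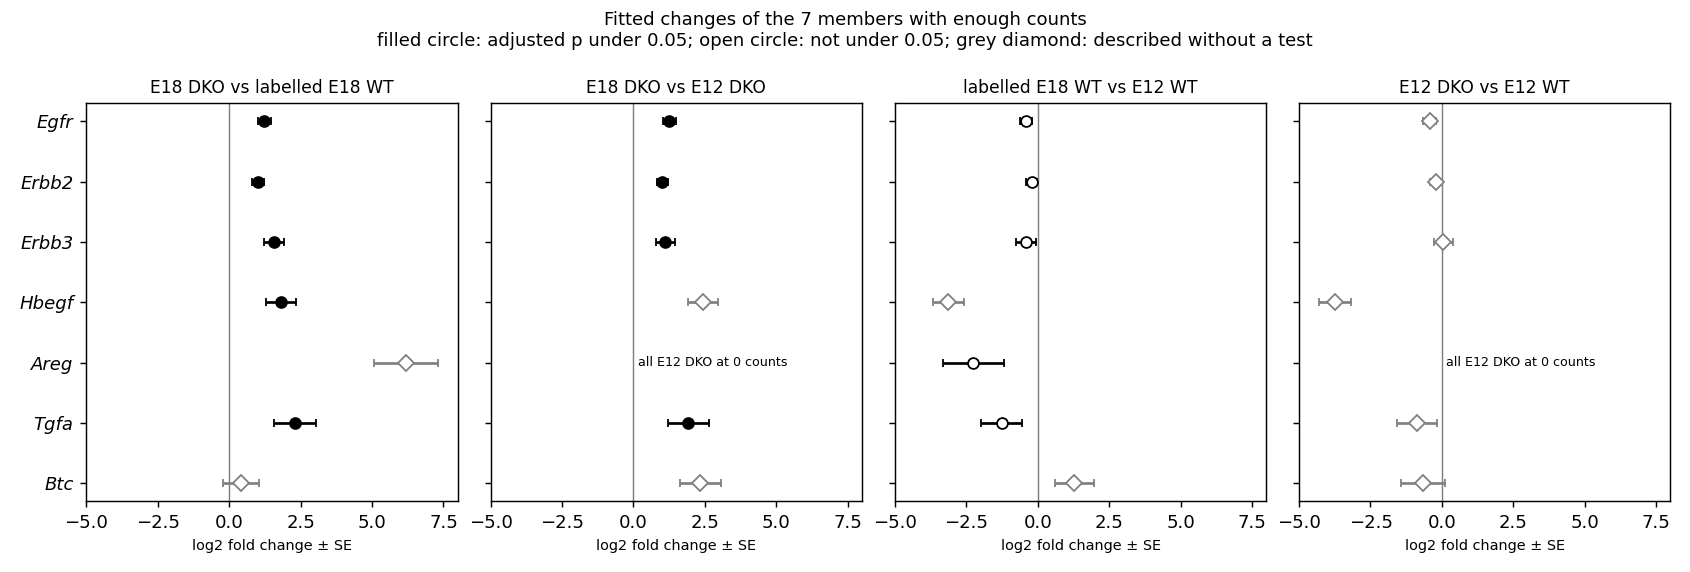
Fitted log2 fold changes (horizontal axis) with standard errors for the 7 transcripts with enough counts, in 4 comparisons. Filled circles had an adjusted p under 0.05, open circles did not, and grey diamonds carry no test, because the member was chosen with that contrast in view or passed the count filter only with a group compared. Areg has no fold where all E12 DKO libraries were at 0 counts.

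Between stages of the DKO, the same genes were compared with a group whose globins matched its label. Of the 4 members tested, 4 rose in E18 DKO relative to E12 DKO, beside 23.2% of all genes called higher and 22.8% called lower (46% in all). The groups did not overlap in 8 of the 10 members, all higher in E18 DKO, against 33% of all tested genes that were higher without overlap and 66.7% in either direction. Of these 8, Hbegf was chosen for its low E12 DKO level. Areg and Btc passed the filter only with the E18 DKO libraries, and Ereg did not pass it. Ereg had 7, 6 and 9 counts in E18 DKO and 1, 7 and 6 in E12 DKO. The shares cover only genes that passed the filter, so the count of 8 is a description. Egfr was at 26.0, 28.5 and 29.8 CPM in E12 DKO, all below the E18 DKO libraries given above, and its log2 fold change was 1.26 ± 0.22 (edgeR adjusted p = 0.00122). Erbb2 was at 46.6, 46.2 and 42.3 CPM in E12 DKO, with a log2 fold change of 1.01 ± 0.20 (edgeR adjusted p = 0.00222). Erbb3 was at 146, 159 and 163 CPM in E12 DKO, with a log2 fold change of 1.11 ± 0.34 (edgeR adjusted p = 0.0196). The E12 DKO values of each receptor spanned a narrow range. This comparison shares the E18 DKO libraries with the one before it, so the values are not separate evidence.

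Among the ligands, the E18 DKO mean of Areg exceeded that of E12 DKO, whose 3 libraries held 0 counts, at least 96.9-fold, taking 3 counts in each E12 DKO library as the limit, and no test is given. Tgfa was at 33.0, 39.7 and 44.6 CPM in E12 DKO, with a log2 fold change of 1.92 ± 0.72 (edgeR adjusted p = 0.0471). That call sat at the threshold and was lost in 11 of 22 alternatives, where the adjusted p reached 0.128. Btc had 3, 3 and 2 counts in E12 DKO, too few to give more than a direction, with a fitted log2 fold change of 2.35 ± 0.71 and no test. Hbegf was at 2.40, 2.47 and 3.88 CPM in E12 DKO, a log2 difference of 2.44 that is given without a test. Without any 1 of the E12 DKO libraries 2 of the 4 calls remained, those of Egfr and Erbb2, and the adjusted p of Erbb3 was 0.0671, 0.0567 and 0.0526 without E12 DKO 1, 2 and 3.

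Between the wild-type groups 0 of 5 tested members differed, where 0.953% of all genes were called, 0.292% higher and 0.661% lower. Areg was among the 5 (edgeR adjusted p = 0.308), though it passed the filter only through E18 DKO, a group outside this comparison. At 1, 3 and 6 counts of Areg in E18-labelled WT, its missed call says little. Only Hbegf, lower in E18-labelled WT, had no overlap between the groups, which held for 17.7% of all genes (9.22% higher and 8.53% lower). The E12 WT level of Hbegf took part in the choice of members, so this is a description. None of the 5 had an unadjusted p under 0.05, and 0 were called by DESeq2 or limma voom. Egfr had a log2 fold change of -0.41 ± 0.22 for E18-labelled WT over E12 WT (edgeR adjusted p = 0.353), and Tgfa one of -1.26 ± 0.71 (edgeR adjusted p = 0.371). Without E12 WT 1 the sign of Tgfa turned, to 0.54, and that of Erbb3 to 0.16. E12 WT 1 held the highest Erbb3, Areg and Tgfa of its group, with 249 CPM of Erbb3 against 115 and 88.2 CPM, 34 counts of Areg against 1 and 4, and 175 CPM of Tgfa against 28.1 and 13.4 CPM. A missed threshold does not show that the wild-type groups were alike.

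At E12, the contrast used to choose the members, Hbegf had the largest fold difference among the members with counts in both groups. It was at 2.40, 2.47 and 3.88 CPM in E12 DKO, against 14.3, 65.4 and 39.0 CPM in E12 WT. The log2 fold change was -3.76 ± 0.56, and it ranged from -4.15 to -3.19 when any 1 of the E12 WT libraries was left out. The wild-type values spread widely, with E12 WT 1 lowest, the reverse of its place for Tgfa and Areg. Hbegf in E12 DKO was also below E18 DKO, with 7.46 CPM as the lowest value there, and overlapped E18-labelled WT.

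The other members showed smaller or less certain differences at E12. Egfr was at 26.0, 28.5 and 29.8 CPM in E12 DKO, against 47.2, 33.4 and 33.2 CPM in E12 WT, a log2 difference of -0.43 ± 0.22 without overlap. Areg had 0 counts in every E12 DKO library, against 34, 1 and 4 in E12 WT, so that the mean of E12 DKO was at least 6.24-fold lower at 3 counts per library, a bound set by E12 WT 1. At that limit E12 DKO overlapped E12 WT 2, which held 1 count. For Tgfa, 33.0, 39.7 and 44.6 CPM in E12 DKO lay inside the E12 WT range, with a log2 difference of -0.89 that became 0.91 without E12 WT 1. Erbb2 at -0.22 and Erbb3 at 0.05 also overlapped, and Erbb3 moved to 0.62 without E12 WT 1. In total, 2 members, Egfr and Hbegf, did not overlap between the groups, both lower in E12 DKO, beside 29.9% of all tested genes (15.6% higher and 14.3% lower). Hbegf was chosen for being lower in this contrast, so it cannot be weighed against that share, and Egfr was the only other member without overlap. Over all genes 0.353% were called in this contrast, 0.0936% higher and 0.259% lower. Ereg had 1, 7 and 6 counts in E12 DKO and 8, 0 and 1 in E12 WT, Epgn 1, 2 and 0 in E12 DKO and 0, 3 and 4 in E12 WT, and Btc 3, 3 and 2 in E12 DKO and 5, 2 and 2 in E12 WT.

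Levels of different genes were compared per exon length, as RPKM, which scales counts by library size and gene length. Over the 12 libraries the order by mean RPKM was Erbb3 (31.5 ± 17.3, SD), Erbb2 (11.2 ± 4.21), Tgfa (11.2 ± 9.93), Hbegf (6.63 ± 8.03), Egfr (3.57 ± 1.59), Areg (2.03 ± 3.37), Btc, Ereg, Epgn and Erbb4, the last 4 under 0.06 RPKM. The ranges over libraries overlapped for every neighbouring pair in this order. Within each library Erbb3 was the leading receptor, with 66.2 to 73% of receptor RPKM in E18 DKO, 55.8 to 67.9% in E18-labelled WT, 68.3 to 71.6% in E12 DKO and 55.3 to 70.4% in E12 WT. Egfr made up 6.59 to 8.99% of receptor RPKM in E18 DKO and 6.81 to 11.5% in E18-labelled WT.

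The make-up of the ligand pool, here the member ligands without Egf and the neuregulins, differed more than that of the receptors. Ligand RPKM summed to 30.4 to 43.6 in E18 DKO, 6.32 to 7.51 in E18-labelled WT, 6.14 to 8.57 in E12 DKO and 18.9 to 34.4 in E12 WT. Tgfa was the largest part in E18 DKO (51 to 69.6%), in E18-labelled WT (52.5 to 75.2%) and in E12 DKO (80.3 to 84.1%). In E12 WT it ranged from 10.9 to 78.5%, and Hbegf from 17.5 to 87.2%, so that Hbegf led in E12 WT 2 and 3 and Tgfa in E12 WT 1. Areg made up 18.8 to 21.6% in E18 DKO, 0.467 to 3.21% in E18-labelled WT, 0% in E12 DKO and 0.0918 to 3.58% in E12 WT.

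**Figure D3:**
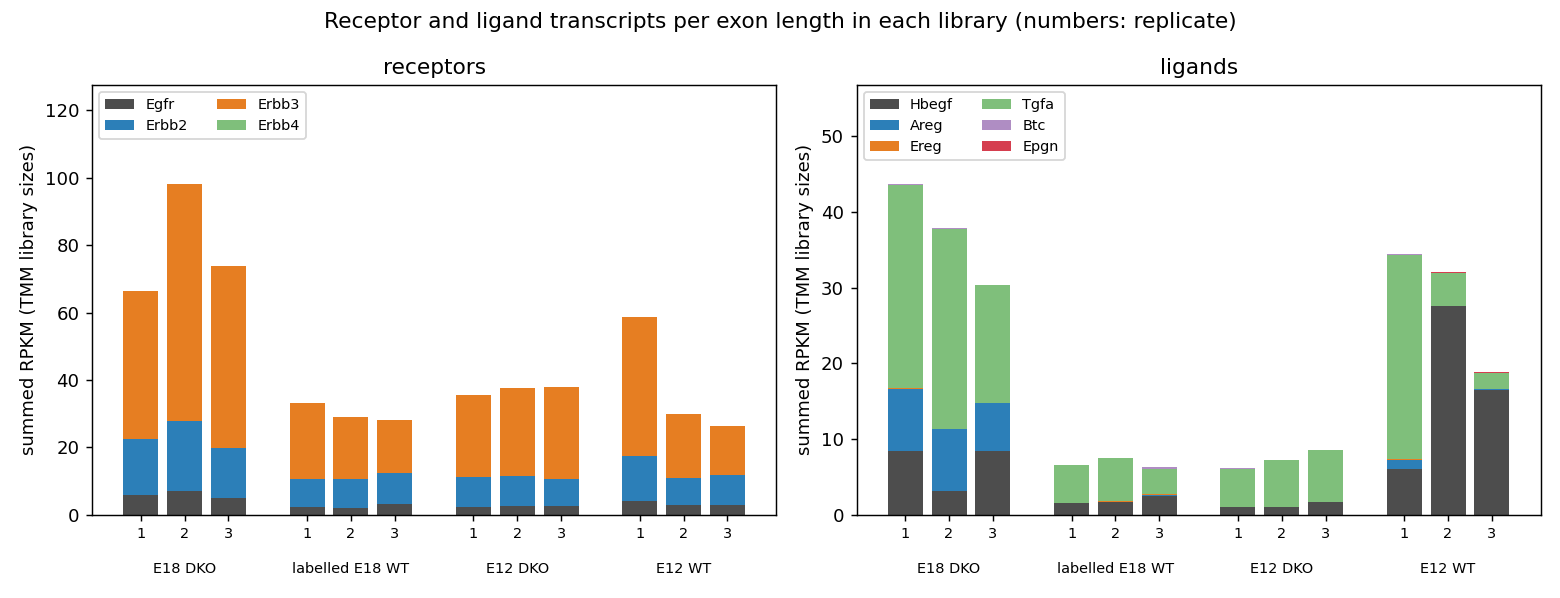
Stacked bars of RPKM (vertical axis from 0, TMM library sizes) of the 4 receptors on the left and the 6 ligands on the right in each of the 12 libraries, with groups from left to right E18 DKO, E18-labelled WT, E12 DKO and E12 WT. Erbb3 is the largest receptor part in every bar, Areg is visible mainly in E18 DKO, and Hbegf leads in E12 WT 2 and 3.

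Of the 4 other ErbB ligands tested, 1 was higher and 1 lower in E18 DKO than in E18-labelled WT. Counts for this and the following gene lists are to be read beside the 20.5% of all tested genes called higher and 21.8% called lower in this comparison. Nrg1, a neuregulin that binds Erbb3 and Erbb4, averaged 4.30 CPM in E18 DKO and 1.80 CPM in E18-labelled WT and rose (log2 fold change 1.25 ± 0.38, edgeR adjusted p = 0.0217). Nrg4, a neuregulin that binds Erbb4, averaged 10.5 CPM in E18 DKO and 19.9 CPM in E18-labelled WT and fell (-0.93 ± 0.29, edgeR adjusted p = 0.0255). Both calls were lost in 4 of 22 alternatives. Egf, at 0.989, 0.469 and 0.708 CPM in E18 DKO against 1.13, 2.75 and 1.44 CPM in E18-labelled WT, was not called there, and Nrg2 was not called. Nrg3 had a single count in E12 WT 2 and in E18-labelled WT 3 and none elsewhere.

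Of 11 tested sheddases, which release the ligands, their carriers and 1 sheddase inhibitor, 7 rose and 1 fell in E18 DKO relative to E18-labelled WT, with a median log2 fold change of 1.33 beside -0.04 for all genes. The inhibitor is Timp3, which blocks ADAM proteases and is named here after its values were seen. It averaged 371 CPM in E18 DKO and 135 CPM in E18-labelled WT and was among those that rose (1.46 ± 0.45, edgeR adjusted p = 0.0226). Without it 6 of 10 rose and 1 fell, with a median of 1.02. Adam8, a membrane metalloproteinase also made by myeloid cells, was at 72.6, 53.7 and 63.6 CPM in E18 DKO, against 2.86, 2.05 and 3.57 CPM in E18-labelled WT (4.49 ± 0.33, edgeR adjusted p = 3.1e-05). Rhbdf1, the pseudoprotease iRhom1 that carries Adam17, averaged 84.5 CPM in E18 DKO and 33.6 CPM in E18-labelled WT (1.33 ± 0.15, edgeR adjusted p = 0.00014). Adam19 fell, with -1.62 ± 0.39 (edgeR adjusted p = 0.00741). Adam17, the main sheddase of Areg and Tgfa and named here after its values were seen, averaged 83.2 CPM in E18 DKO and 58.0 CPM in E18-labelled WT and was not called (adjusted p = 0.124).

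Downstream of the receptors, of 18 adaptors and ERK cascade genes, 3 rose and 2 fell, beside 20.5% and 21.8% of all genes, with a median of 0.12 on the log2 scale; with libraries left out the counts were 2 to 5 and 0 to 3. Among them Shc1, an adaptor of ErbB receptors, averaged 193 CPM in E18 DKO and 103 CPM in E18-labelled WT (0.91 ± 0.16, edgeR adjusted p = 0.0013), and Gab2, a docking protein, 36.5 CPM in E18 DKO and 13.4 CPM in E18-labelled WT (1.44 ± 0.36, edgeR adjusted p = 0.00857). Sos1, a guanine exchange factor for Ras, fell by 0.61 on the log2 scale (edgeR adjusted p = 0.0164, and 0.0735 without E18-labelled WT 2), and Ksr1, a scaffold of the cascade, fell by 0.48 (edgeR adjusted p = 0.0311, lost in 9 of 22 alternatives).

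Of 11 tested feedback inhibitors of ERK, 7 rose and 0 fell, beside 20.5% higher and 21.8% lower of all genes, with a median of 0.80. Dusp5, a nuclear phosphatase of ERK, was at 81.0, 39.2 and 96.7 CPM in E18 DKO, against 14.8, 10.5 and 15.1 CPM in E18-labelled WT (2.42 ± 0.43, edgeR adjusted p = 0.00139). Spry1, a Sprouty inhibitor of receptor signalling, averaged 69.1 CPM in E18 DKO and 30.1 CPM in E18-labelled WT (1.20 ± 0.16, edgeR adjusted p = 0.000325). The count fell to 4 without E18-labelled WT 2.

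Of 17 tested transcripts that ERK is known to induce, 9 rose and 0 fell, beside the same shares of all genes, with a median of 1.31. Myc, a growth-promoting transcription factor, was at 83.3, 47.6 and 49.3 CPM in E18 DKO, against 10.8, 10.3 and 9.73 CPM in E18-labelled WT (2.55 ± 0.37, edgeR adjusted p = 0.000555). Junb, an AP-1 subunit, averaged 144 CPM in E18 DKO and 29.1 CPM in E18-labelled WT (2.31 ± 0.36, edgeR adjusted p = 0.000714). The count was 6 without E18 DKO 1 or without E18-labelled WT 2. The summed level of the list was 901 to 1169 CPM in E18 DKO, 223 to 370 CPM in E18-labelled WT, 196 to 227 CPM in E12 DKO and 253 to 682 CPM in E12 WT. Whether these transcripts depended on the receptors was not tested.

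Inhibitors and turnover proteins of ErbB receptors went both ways, with 4 of 16 higher and 3 lower and a median of 0.08, and the counts were 3 to 7 and 1 to 4 with libraries left out. Errfi1, which blocks the Egfr kinase, was at 215, 219 and 151 CPM in E18 DKO, against 44.2, 48.8 and 49.2 CPM in E18-labelled WT (2.04 ± 0.31, edgeR adjusted p = 0.00065). Ptpn1, a phosphatase of receptor tyrosine kinases, rose by 1.05 ± 0.16 (edgeR adjusted p = 0.000576). Lrig3, of a family that includes a negative regulator of ErbB receptors, was at 6.95 CPM on average in E18 DKO and 23.0 CPM in E18-labelled WT (-1.73 ± 0.29, edgeR adjusted p = 0.00114). Sh3kbp1, a Cbl partner in receptor uptake, was at -1.05 ± 0.31 (edgeR adjusted p = 0.018, lost in 3 of 22 alternatives).

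**Figure D4:**
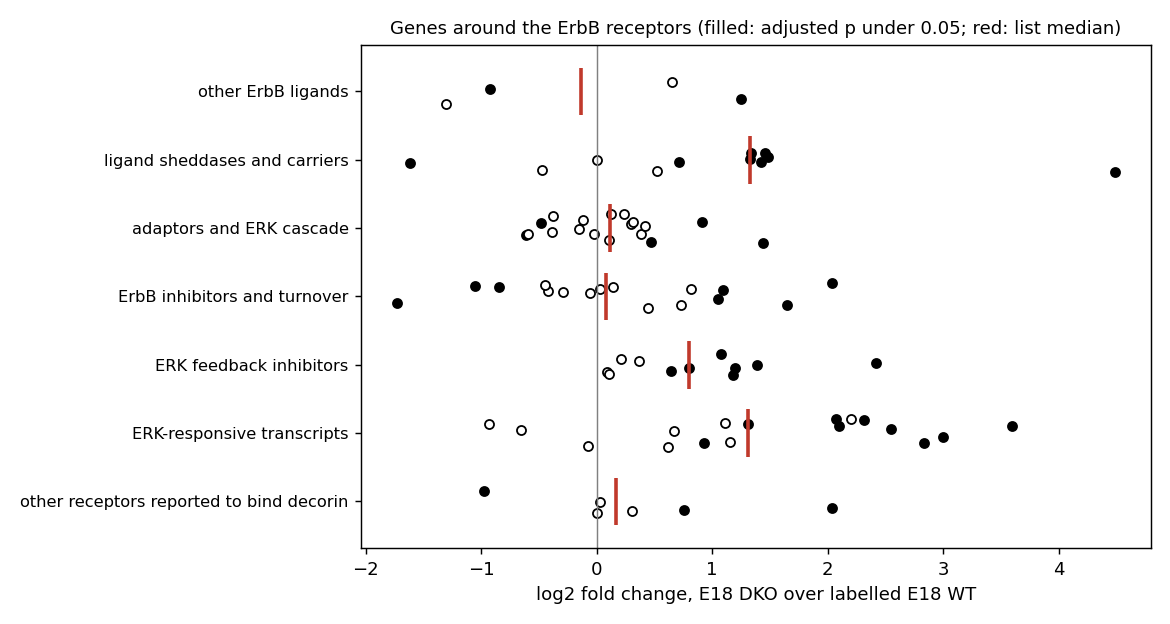
Log2 fold change of E18 DKO over E18-labelled WT (horizontal axis) for the tested genes of 7 lists around the ErbB receptors, with 1 point a gene and vertical position within a row spread at random. Filled points had an adjusted p under 0.05, and red lines mark list medians, which are 1.31 for ERK-responsive transcripts and 0.12 for adaptors and ERK cascade.

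Relative to E12 DKO the counts in E18 DKO were 7 higher and 1 lower of 11 for sheddases and carriers, 6 and 0 of 11 for feedback inhibitors, 12 and 0 of 17 for ERK-responsive transcripts, 3 and 6 of 18 for adaptors and cascade, 4 and 3 of 16 for inhibitors and turnover, and 1 and 2 of 4 for the other ligands, beside 23.2% of all genes higher and 22.8% lower. With libraries left out the higher counts were 5 to 8 for sheddases, 5 to 7 for feedback inhibitors, 11 to 14 for ERK-responsive transcripts, 1 to 5 for adaptors and cascade, 3 to 8 for inhibitors and turnover and 0 to 1 for the other ligands, and the lower counts were 1, 0, 0 to 1, 4 to 6, 2 to 5 and 1 to 2 in the same order. Adaptors and cascade had 1 higher without any 1 E12 DKO library or without E18 DKO 1 or 3, and the other ligands had 0 higher without E12 DKO 2 or 3 or E18 DKO 1. For inhibitors and turnover the higher count was 7 and the lower 5 without E12 WT 1. Cblc, an epithelial ubiquitin ligase of Egfr, averaged 18.2 CPM in E18 DKO and 4.04 CPM in E12 DKO (2.17 ± 0.32, edgeR adjusted p = 0.000457). Fosb, an AP-1 subunit, was at 28.1, 9.21 and 29.6 CPM in E18 DKO, against 0.657, 0.542 and 0.332 CPM in E12 DKO (5.44 ± 0.81, edgeR adjusted p = 0.000466). Egf fell by 1.77 on the log2 scale (edgeR adjusted p = 0.0153, lost without E12 DKO 2 or E18 DKO 2). In the wild-type stage comparison 0 genes were called in each of these lists, beside 0.953% of all tested genes. At that share, 0 calls in lists this short do not set the wild type apart. With libraries left out, at most 1 gene per list was called in either direction there.

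Other receptors reported to bind decorin gave 2 higher and 1 lower of 6 in E18 DKO relative to E18-labelled WT, and 0 to 2 higher and 0 to 1 lower with libraries left out. Tlr4, a receptor of innate immunity, was at 10.8, 15.1 and 7.52 CPM in E18 DKO, against 2.26, 2.11 and 3.73 CPM in E18-labelled WT (2.04 ± 0.69, edgeR adjusted p = 0.0338, lost in 5 of 22 alternatives). Igf1r, the insulin-like growth factor receptor, was at 0.76 ± 0.26 (edgeR adjusted p = 0.0367, lost in 10 of 22), and Kdr, the VEGF receptor of endothelium, at -0.97 ± 0.31 (edgeR adjusted p = 0.0251, lost in 5 of 22).

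Summed marker levels of several cell types also differed between E18 DKO and E18-labelled WT. The summed level of 18 epithelial markers was 7241 to 9300 CPM in E18 DKO, 3188 to 3968 CPM in E18-labelled WT, 3116 to 3648 CPM in E12 DKO and 4635 to 6745 CPM in E12 WT, and 7 of the 18 rose and 5 fell in E18 DKO relative to E18-labelled WT. Epcam and Cdh1, its defining markers, were above 0 in all 12 libraries. The median log2 fold change of the 18 was -0.19, beside -0.04 over all tested genes. Krt18 gave 29.7% of the mean epithelial sum in E18 DKO, at 2433 CPM against 883 CPM in E18-labelled WT. Krt5 went the other way, at 0.832 CPM in E18 DKO against 66.6 CPM in E18-labelled WT. For 10 neutrophil markers the sums were 194 to 279 CPM in E18 DKO, 4.15 to 11.1 CPM in E18-labelled WT, 2.99 to 6.64 CPM in E12 DKO and 4.71 to 93.6 CPM in E12 WT, with 2 of 5 tested higher and 1 lower. Cxcr2, a chemokine receptor, gave 95.8% of the mean neutrophil sum in E18 DKO, where it averaged 222 CPM, while Ly6g and Elane were at 0 in E18 DKO and S100a8 and S100a9 averaged 2.64 and 4.23 CPM there, against 0.648 and 0.644 CPM in E18-labelled WT. For 12 macrophage markers the sums were 976 to 1404 CPM in E18 DKO and 427 to 572 CPM in E18-labelled WT, with 5 of 12 higher and 2 lower. Csf1r gave 57.7% of the mean macrophage sum in E18 DKO, at 660 CPM against 183 CPM in E18-labelled WT. For 12 stromal markers the sums were 3583 to 6360 CPM in E18 DKO and 14259 to 30828 CPM in E18-labelled WT, with 2 of 12 higher and 8 lower. For 10 markers of cornifying epidermis the sums were 168 to 211 CPM in E18 DKO and 5.16 to 24.5 CPM in E18-labelled WT, with 3 of 6 tested higher and 0 lower; Sbsn gave 92.5% of the mean sum in E18 DKO, and Krt1 was at 0 there. For 12 endothelial markers they were 487 to 585 CPM in E18 DKO and 257 to 445 CPM in E18-labelled WT, with 5 of 12 higher and 1 lower. For 12 markers of yolk sac endoderm they were 83597 to 167114 CPM in E18 DKO and 54356 to 82836 CPM in E18-labelled WT. Of these 12, 4 were higher and 1 lower, with a median log2 fold change of 0.15. Apoa1 averaged 36325 CPM in E18 DKO and 7382 CPM in E18-labelled WT. Cubn went the other way, at 671 CPM in E18 DKO and 1440 CPM in E18-labelled WT. For 13 trophoblast and decidua markers the sums were 31.6 to 108 CPM in E18 DKO and 115, 106 and 1294 CPM in E18-labelled WT. Of 9 tested, 0 were higher and 2 lower. Only E18-labelled WT 3 held the high value, and the ranges of the groups overlapped. That library also held the highest Egfr, Erbb2, Hbegf, Areg, Ereg, Btc, Epgn and Erbb4 of its group and the lowest Erbb3 and Tgfa. The part of these cell types in the changes of the ErbB transcripts was not tested, and more cells of a type and more RNA per cell cannot be told apart in bulk RNA.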

How the data were processed

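RNA of fetal membranes was sequenced from stranded mRNA libraries, per the labels' protocols. The submitters' processing notes list Trimmomatic 0.36, STAR 2.4.2a, featureCounts, Subread 1.5.0 and the build GRCm38. Assignment to Ensembl 86 genes used strand option 2, per the file headers. The deposited values are raw counts per gene. Exon lengths are those of the deposited count files. Counts of 11 libraries were those deposited for each library, and those of E12 DKO 1 came from the series table. Each of the 11 was identical to 1 column of that table. The 3 columns of the E18-labelled WT group there carry other numbers than the titles, and replicate numbers here follow the titles. Members and gene lists were chosen with earlier results of these data known.

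Counts were filtered with filterByExpr (18153 of 48795 genes kept), TMM-normalised and fitted in edgeR 4.0.16 (R 4.3.3) as 1 quasi-likelihood model with 4 group means over 12 libraries (8 residual degrees of freedom). P-values were Benjamini-Hochberg adjusted over all tested genes and called under 0.05; SE is |log2 fold change| over the root of F. No p is given for members in the E12 genotype contrast, nor for Hbegf between stages. A count of 0 is bounded by 3 counts per library, which covers counting error only. Named pathway genes were up to 2 called genes per list and direction with the lowest adjusted p, plus every other ErbB ligand. No p is given for Areg and Btc where a group compared was needed for them to pass the filter. Groups overlap where a count of 0, taken as 3 counts, reaches the other group. Adam17, Timp3 and single markers were named, and the list counts under left-out libraries were added, after values were seen. The procedure was tested on simulated counts. Of the 13 sheddase and 12 feedback genes listed, 12 and 11 matched. Promoters came from RefSeq and matched 7 of 10 members. Alternatives were size factors of DESeq2, scaling by library size only, the Wald test in DESeq2 1.42.0, voom in limma 3.58.1, no filter, 1 CPM in at least 3 libraries, a replicate block, only the compared groups and each library left out, and, added after seeing the data, 2 pairs of wild-type libraries left out. Figures used matplotlib 3.10.9 in Python 3.11.15.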

Additional observations from a re-analysis of the deposited data

Results flagged for a closer look

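For 2 genes the DKO and wild-type libraries did not overlap at either labelled stage, and the direction was opposite at the 2 stages. Groups without overlap in either direction made up 56.3% of all tested genes at E18 and 29.9% at E12. The share of all genes without overlap at both stages and with opposite directions was not counted. The differences between the stages were not tested. Egfr had a log2 fold change of DKO over wild type of 1.23 at E18 and -0.43 at E12, and the E12 value was -0.24 without E12 WT 1. Hbegf had 1.81 at E18 and -3.76 at E12. The E12 values took part in the choice of members, and the E18-labelled WT libraries had the globin make-up of the early stage.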

How the results depend on the processing

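The number of members higher in E18 DKO than in E18-labelled WT was 5 of 5, and 3 to 5 with 1 library left out, with 0 lower in all alternatives. It was 3 without E18 DKO 1 or without E18-labelled WT 1 or 2. Against E12 DKO it was 4 of 4, 2 with library size alone, and 2 to 4 with 1 library left out, with 2 without E18 DKO 2 or any 1 E12 DKO library. With library size alone the median log2 fold change of all genes shifted by -0.36 in the first and -0.35 in the second comparison, and the split over all genes in the first was 2382 higher and 6015 lower, against 3725 and 3953. For the wild-type stage comparison 53 genes were higher and 120 lower over all genes. The higher count was 181 with library size alone, 455 by the DESeq2 Wald test, 14 with the replicate block, 3 with only the compared groups, 411 without E12 WT 1 and E18-labelled WT 3, and 11 without E12 WT 1 and 3. The lower count was 768 by DESeq2, 75 with limma voom, 63 with the block, 53 with only the compared groups, 617 and 59 without those pairs. Leaving out 1 library gave 7 to 633 higher and 24 to 1051 lower. In that comparison Erbb2 turned to 0.11 with library size alone, to 0.11 without E12 WT 1 and 3, and was -0.36 to 0.038 with 1 library left out. Erbb3 was 0.28 without E12 WT 1 and E18-labelled WT 3, and -0.68 to 0.16 with 1 left out. Areg was 1.62 without E12 WT 1 and 3, and -3.09 to 0.0117 with 1 left out. Tgfa was 0.73 and 0.10 without those pairs, and -1.75 to 0.54 with 1 left out. At E12 17 genes were higher and 47 lower over all genes. The higher count was 41 with library size alone, 745 by DESeq2, 32 with limma voom, 10 with no filter, 1 with the block, 0 with only the compared groups, and 1544 and 0 without those pairs. The lower count was 14 with library size alone, 1340 by DESeq2, 4 with the block, 0 with only the compared groups, and 2209 and 3 without those pairs. Leaving out 1 library gave 0 to 1298 higher and 1 to 1901 lower. Ranks by CPM without length were 4 for Egfr, 3 for Erbb2, 5 for Hbegf and 2 for Tgfa. Same-numbered libraries did not deviate together in every pair, with r from -0.18 to 0.18, and differently numbered ones ranged from -0.18 to 0.17. With 3 libraries per group, such values cannot exclude a pairing by replicate number. The block gave 5 members higher at E18, and 3 against E12 DKO, where Tgfa missed the threshold (edgeR adjusted p = 0.0544). The causes were not tested. Low counts limit Areg, Btc, Ereg, Epgn and Erbb4.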

Other observations

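The transcripts whose log2 CPM followed the members most closely over the 12 libraries, 3 for each member with a mean of at least 1 CPM, are given as a description, with no test, since the libraries of a group share their stage and genotype. They were ranked by Pearson r among 11189 candidates, and their places by Spearman correlation are given beside it. Egfr followed F11r, a tight junction protein, Fam160a1 and Ube2f, with r of 0.97 to 0.98 and Spearman places 3 to 24. Erbb2 followed Bsnd, Rbl2 and Mtfr1l, with 0.99 and places 35 to 663. Erbb3 followed Rnf216, Ocln, the tight junction protein occludin, and Cramp1l, with 0.98 to 0.99 and places 28 to 55. Hbegf followed St3gal5, Actb and Icam2, with 0.91 to 0.93 and places 1 to 11. Tgfa followed Cish, an inhibitor of cytokine signalling, Arrdc3 and Pip5k1a, with 0.98 to 0.99 and places 25 to 384. Areg followed Nek8, Nupr1 and Ampd3 with 0.99 each and places 23 to 148, which rests on the 3 E18 DKO libraries standing above the others.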
